A study of Mus musculus with 9 samples.

Results

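The progesterone and Indian hedgehog axis of the uterus was followed in 10 genes: Ihh, Ptch1, Gli1, Nr2f2, Hand2, Bmp2, Fkbp5, Il13ra2, Areg and Calca. They were taken by symbol from 34619 unique gene symbols measured by poly(A) RNA sequencing, and all 10 were present in the 9 libraries. The study gave adult female wild-type CD-1 (ICR) mice, an outbred stock, either pure corn oil by gavage (control, 3 libraries), bisphenol B (BPB, 3 libraries) or bisphenol AF (BPAF, 3 libraries), also by gavage. The vehicle of the bisphenols is not stated in the labels. The daily dose of either bisphenol was 300 µg per kg of body weight, given for 28 days. The mice were 7 to 8 weeks old when bought and had 1 week of acclimatization. All 3 groups ate an estrogen-free diet and lived on corncob bedding. The sources do not give the stage of the estrous cycle or the time of day at collection, and they do not say whether the 3 libraries of a group came from separate mice, so p-values measure only the spread between these libraries. Levels are FPKM, sequenced fragments corrected for the length of the gene and the size of the library, so they can be compared between genes.

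In the mouse uterus, progesterone acts through the progesterone receptor (gene Pgr) in epithelium, stroma and muscle. In the luminal epithelium the receptor raises Indian hedgehog, a secreted ligand that crosses to the stroma, binds the receptor patched 1 and so frees smoothened to activate the GLI transcription factors. The genes of patched 1 and GLI1 are themselves switched on by hedgehog signalling and serve as its standard read-outs. In the stroma, COUP-TFII (gene Nr2f2), HAND2 and BMP2 act further along this route toward receptivity for the embryo and decidualization, the change of stromal cells that follows implantation. Fkbp5, Il13ra2, Areg and Calca are further genes known to respond to progesterone in the uterus or other target cells.

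The promoter windows below show where transcription of 3 members starts: the ligand Ihh and the receptor Ptch1, whose values did not overlap between control and exposed libraries, and Il13ra2, which varied most. Each runs from 250 bases before to 50 bases after the annotated start in RefSeq on GRCm38.p6, 5′ to 3′ on the gene's minus strand, with TATAAA, the core of a TATA box, in capitals. The windows lie at chr1:74951623-74951922 for Ihh, chr13:63565686-63565985 for Ptch1 and chrX:147429143-147429442 for Il13ra2.
Ihh: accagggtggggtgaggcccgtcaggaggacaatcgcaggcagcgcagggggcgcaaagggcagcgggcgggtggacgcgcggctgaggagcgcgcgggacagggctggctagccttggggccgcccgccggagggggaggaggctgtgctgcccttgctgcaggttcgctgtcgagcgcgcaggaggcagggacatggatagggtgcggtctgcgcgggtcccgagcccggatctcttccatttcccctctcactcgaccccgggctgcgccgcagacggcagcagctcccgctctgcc
Ptch1: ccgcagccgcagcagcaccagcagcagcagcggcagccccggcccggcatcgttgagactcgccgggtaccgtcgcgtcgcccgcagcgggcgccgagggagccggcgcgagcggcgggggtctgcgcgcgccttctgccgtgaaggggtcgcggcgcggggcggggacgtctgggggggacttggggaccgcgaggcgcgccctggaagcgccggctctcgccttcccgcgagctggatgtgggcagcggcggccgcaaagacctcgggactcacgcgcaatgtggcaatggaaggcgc
Il13ra2: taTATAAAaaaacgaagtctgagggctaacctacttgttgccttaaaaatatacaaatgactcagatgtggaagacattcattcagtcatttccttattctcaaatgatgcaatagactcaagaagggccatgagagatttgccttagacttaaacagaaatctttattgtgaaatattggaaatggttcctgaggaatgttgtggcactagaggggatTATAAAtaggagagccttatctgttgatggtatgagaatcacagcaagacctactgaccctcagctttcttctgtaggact
The windows of Ihh and Ptch1 had no TATAAA and a GC content of 72.7% and 76.3%, against a median of 52.7% over 32851 promoter windows. The window of Il13ra2 had a GC content of 37.7% and held TATAAA at 248 and at 31 bases before the start, counted at the first base of each match. A window was found for 8 of the 10 genes, all but Gli1 and Bmp2. TATAAA, searched on both strands, was in 2 of those 8 windows (Areg and Il13ra2) and in 13.6% of all windows. A GLI site spelled GACCACCCA was in none of the 8 and in 0.253% of all windows. The palindromic element bound by progesterone and glucocorticoid receptors was in none of the 8 and in 0.475% of all windows, and the half-site TGTTCT, which can lie inside it, was in none of the 8 and in 19% of all windows. These counts describe letters in the windows only.

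The reads behind the FPKM scaling ranged from 12620198 in control 3 to 15616772 in BPB 2. The uterus was checked with 7 defining genes, of which all 7 reached 1 FPKM in every library but BPB 3, where 6 did. The libraries differed in tissue make-up. Urothelium markers, typical of the bladder and urethra lining, summed to 29.6 to 77.8 FPKM in the controls, to 1585, 2330 and 2665 FPKM in BPB 1, 2 and 3, to 1379 FPKM in BPAF 1, and to 9.03 and 16.0 FPKM in BPAF 2 and 3. All 10 of these markers reached 1 FPKM in the 3 BPB libraries and in BPAF 1, against 3 or 4 of 10 in each of the others, and Upk3a and Shh were at 0 in all controls and in BPAF 2 and BPAF 3. Most of the control sums came from the keratin genes Krt20 (25.2 and 22.2 FPKM in control 1 and 2) and Krt5 (71.9 FPKM in control 3). Upk1b had 0.448 to 1.84 FPKM in the controls and 0.310 and 7.35 FPKM in BPAF 2 and 3. The lower sums of BPAF 2 and 3 therefore do not show less urothelium than in the controls. Markers of lower urinary tract mesenchyme summed to 0.170 to 0.586 FPKM in the controls, 25.5 to 38.8 FPKM in the BPB libraries and 6.53, 0.426 and 1.37 FPKM in BPAF 1, 2 and 3, with Tbx5 and Hoxd13 at 0 in all controls. Exposure to BPB and the presence of this tissue cannot be told apart, because all 3 BPB libraries and no control held it. In BPAF it was in 1 library of 3, so BPAF values are given below for each library. Smooth muscle markers summed to 3552 to 5648 FPKM in the controls, 7394 to 11802 FPKM in BPB and 1044 to 3407 FPKM in BPAF, so these 3 groups did not overlap. Skeletal muscle markers summed to 72.5 to 157 FPKM in the controls, 206 to 503 FPKM in BPB and 19.9 to 115 FPKM in BPAF. Adipocyte markers summed to 79.4 to 105 FPKM in the controls, to 870, 286 and 99.9 FPKM in BPB 1, 2 and 3, and to 649, 0.794 and 301 FPKM in BPAF 1, 2 and 3. The part of muscle and fat in the differences below was not tested. In bulk tissue, fewer cells of a type and less RNA per cell cannot be told apart.

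No difference passed the test for any of the 8 tested genes in either exposure, and Areg and Calca were too low to be tested. In the hedgehog arm, Ihh and Ptch1 were above all 3 controls in all 6 exposed libraries, as were 8.53% of all tested genes. Ihh entered the test only through exposed libraries. Gli1 was above all controls in the 3 BPAF libraries, as were 14.3% of all tested genes, and overlapped them in BPB. Bmp2 had its 3 highest values in the 3 BPB libraries. Pgr, the gene of the receptor at the top of the axis, had lower values in all 6 exposed libraries than in the controls, as had 1.69% of all tested genes. It did not pass the test either.

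Tests were limma comparisons of log2(FPKM + 1) over all 9 libraries, two-sided, with Benjamini-Hochberg adjustment over 13743 tested genes. A gene was tested if it reached 1 FPKM in at least 3 libraries and called at an adjusted p under 0.05. Of the 10 genes 8 were tested, and Areg and Calca were too low. Ihh reached 1 FPKM in exactly 3 libraries, BPB 1, BPAF 1 and BPAF 3, so it entered the test only through exposed libraries and had to differ. In BPB against control 0 of the 8 were called, where 2.55% of all tested genes were (351 genes, of which 282 were higher and 69 lower, or 2.05% and 0.502% of all tested). With median-ratio scaling that split was 218 higher and 100 lower, and when single libraries were left out the count of 351 ranged from 1 (without control 1 or BPB 2) to 427 (without BPAF 1). At an unadjusted p under 0.05 there were 6 of the 8, with Ihh among the 6, against 17.4% of all tested genes. In BPAF against control 0 of the 8 were called by limma, against 0.0218% of all tested genes (3 genes), and 4 of the 8 had an unadjusted p under 0.05, against 12.8% of all. A joint limma test of the 3 groups called 0 of the 8, against 0.844% of all tested genes, with 3 of the 8 and 15.1% of all at an unadjusted p under 0.05.

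All 3 BPB libraries lay above all 3 controls for 4 of the 8 genes, Ihh, Ptch1, Bmp2 and Il13ra2, as they did for 19.5% of all tested genes. All 3 BPAF libraries lay above the controls for 4 of the 8, Ihh, Ptch1, Gli1 and Fkbp5, as they did for 14.3% of all. All 6 exposed libraries lay above the controls for Ihh and Ptch1, as they did for 8.53% of all. Ihh entered the test only through exposed libraries, so nothing is read from its place in these counts or in those that follow. Apart from Ihh the counts rest on Ptch1, Bmp2 and Il13ra2 in BPB, on Ptch1, Gli1 and Fkbp5 in BPAF, and on Ptch1 over all 6. The difference was above 0 for 8 of the 8 in BPB, as for 63.5% of all tested genes, and for 8 of the 8 in BPAF, as for 70.1% of all. The values carry a general shift: the median difference over all tested genes was 0.15 on the log2(FPKM + 1) scale in BPB against control and 0.21 in BPAF against control. Rescaling the libraries by median ratios removed that shift and left the differences of 7 of the 8 genes positive in both comparisons. The exception was Nr2f2 in BPAF against control, at -0.023.

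**Figure D1:**
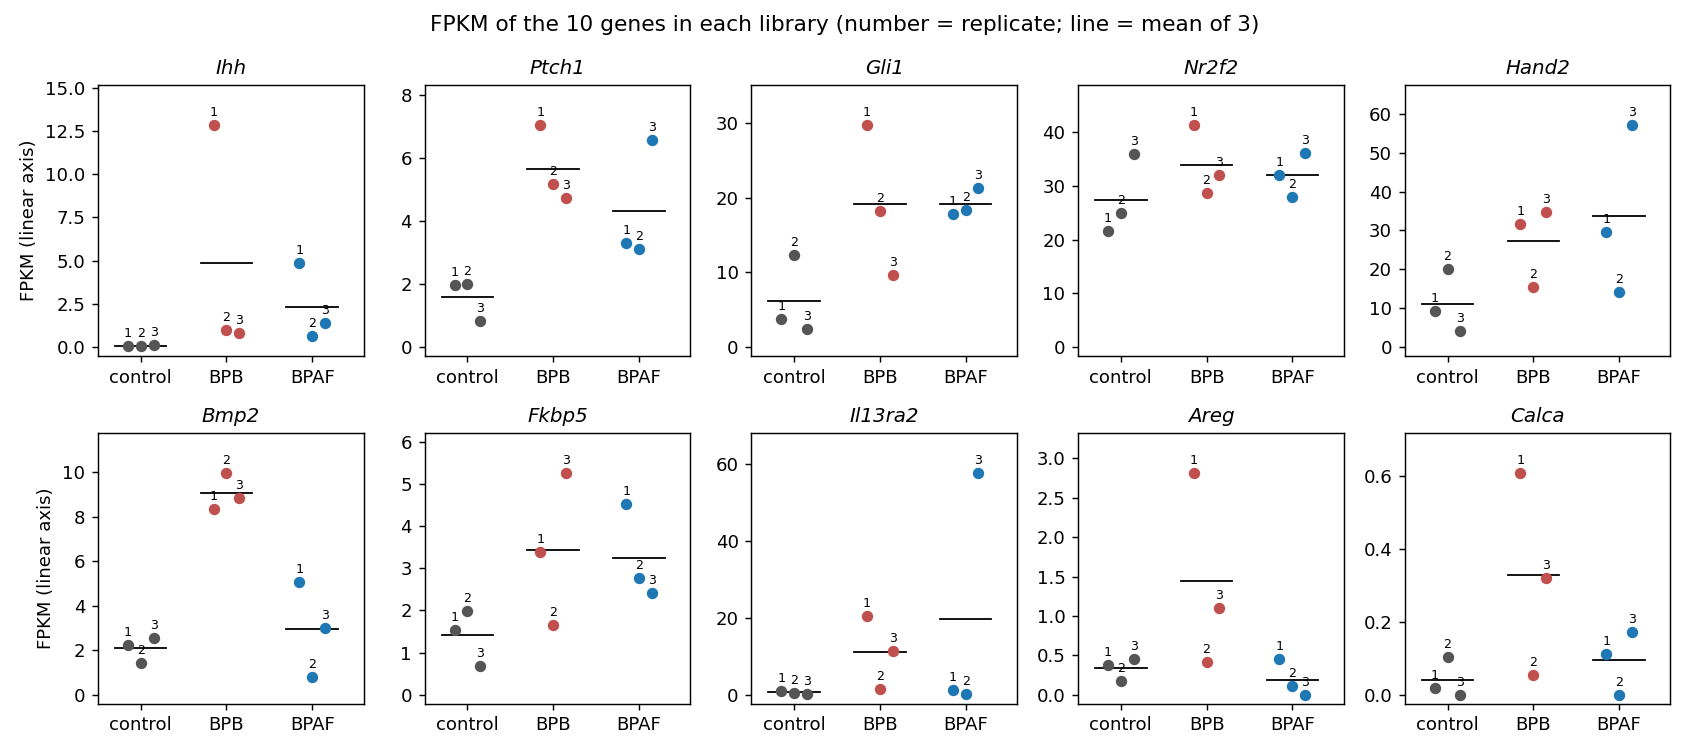
FPKM (linear axes, 1 panel per gene) of the 10 genes in the 3 control (grey), 3 BPB (red) and 3 BPAF (blue) libraries; each point is 1 library with its replicate number and each line the mean of 3. Ihh and Ptch1 sit above the controls in all 6 exposed libraries, Bmp2 is between 8.34 and 9.98 FPKM in BPB alone, and 1 library carries the BPAF mean of Il13ra2.

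Pgr encodes the receptor through which progesterone acts on the axis. Its level was 44.8, 59.5 and 35.6 FPKM in control 1, 2 and 3, 12.5, 22.4 and 8.10 FPKM in BPB 1, 2 and 3, and 13.04, 30.4 and 15.7 FPKM in BPAF 1, 2 and 3. Every exposed library was below every control, with BPAF 2 the nearest, as was so for 1.69% of all tested genes. The part of tissue make-up in the Pgr values was not tested. The difference was -1.71 in BPB (SE 0.42, limma adjusted p = 0.0672) and -1.26 in BPAF (SE 0.42, adjusted p = 0.304) on the log2(FPKM + 1) scale. The BPB difference passed the threshold in 1 of 18 alternative analyses, median-ratio scaling (adjusted p = 0.0474), and the adjusted p over all 18 ranged from 0.0474 to 0.245.

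Ihh encodes Indian hedgehog, the epithelial ligand. It was nearly silent in the controls, at 0.0688, 0.0374 and 0.103 FPKM, which rest on 4, 2 and 5 reads. BPB 1, 2 and 3 had 12.9, 0.981 and 0.813 FPKM from 723, 59 and 42 reads. BPAF 1, 2 and 3 had 4.84, 0.640 and 1.40 FPKM from 239, 36 and 72 reads. The lowest exposed library, BPAF 2, was therefore above the highest control, control 3, while the exposed libraries themselves ranged from 0.640 to 12.9 FPKM. The mean was 0.0697 ± 0.0327 FPKM in control (SD, n = 3), 4.88 ± 6.91 FPKM in BPB (SD, n = 3) and 2.29 ± 2.24 FPKM in BPAF (SD, n = 3). On the log2(FPKM + 1) scale, which understates changes of low genes, the difference was 1.78 in BPB (SE 0.74, limma adjusted p = 0.253) and 1.41 in BPAF (SE 0.74, adjusted p = 0.447). Without BPB 1, the highest library, the BPB difference was 0.83, and without BPAF 1 the BPAF difference was 0.89. The highest libraries, BPB 1 and BPAF 1, both had high urothelium sums, as did BPB 2 and BPB 3, while in BPAF 2 and BPAF 3 those sums were 9.03 and 16.0 FPKM. Adipocyte sums were 870, 286 and 99.9 FPKM in BPB 1, 2 and 3. In BPAF 1, 2 and 3 they were 649, 0.794 and 301 FPKM, against 79.4 to 105 FPKM in the controls. Among the exposed libraries these sums ranked in the same order as Ihh, but those of BPB 3 and BPAF 2 were not above the controls. The part of urothelium and fat in the Ihh values was not tested.

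Ptch1 encodes patched 1, the hedgehog receptor, whose gene is also induced by the pathway. Its level was 1.97, 2.00 and 0.817 FPKM in control 1, 2 and 3, 7.04, 5.17 and 4.71 FPKM in BPB 1, 2 and 3, and 3.30, 3.10 and 6.56 FPKM in BPAF 1, 2 and 3. All 6 exposed libraries were above all controls, and the BPB and BPAF values overlapped each other. The BPB difference was 1.38 (SE 0.32, 95% interval 0.66 to 2.09, limma adjusted p = 0.0577) and the BPAF difference 1.01 (SE 0.32, 95% interval 0.30 to 1.73, adjusted p = 0.304). Of 17 alternatives for the BPB difference, 2 passed the threshold: leaving out BPAF 3 (adjusted p = 0.0420) and fitting only the 6 libraries compared (adjusted p = 0.0499). Over the 17 the adjusted p ranged from 0.0420 to 0.169. The part of urothelium in the Ptch1 values, whose marker sums were high in the BPB libraries and BPAF 1 and 9.03 and 16.0 FPKM in BPAF 2 and BPAF 3, was not tested.

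Gli1 encodes a GLI transcription factor that is both effector and target of the pathway. The controls spread widely, with 3.76, 12.3 and 2.44 FPKM in control 1, 2 and 3. BPB 1, 2 and 3 had 29.8, 18.2 and 9.68 FPKM, and BPAF 1, 2 and 3 had 17.9, 18.4 and 21.4 FPKM. BPB 3 was below control 2, so those groups overlapped, whereas the BPAF libraries were close together and all above control 2. The mean of BPAF was 19.2 ± 1.89 FPKM (SD, n = 3) and that of BPB 19.2 ± 10.1 FPKM (SD, n = 3), against 6.17 ± 5.36 FPKM in control (SD, n = 3). The difference was 1.62 in BPB (SE 0.52, limma adjusted p = 0.146) and 1.74 in BPAF (SE 0.52, adjusted p = 0.301). None of 18 alternatives brought either under 0.05, with adjusted p from 0.0539 to 0.339 in BPB and from 0.208 to 0.558 in BPAF. Exons of Gli1 share 265 bases (5.31% of its exon bases) with Gm47200 and 62 bases (1.24%) with Arhgap9, both on the other strand in GENCODE M21, and whether the counting used strand is not given in the sources used here.

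Nr2f2 encodes COUP-TFII, a stromal nuclear receptor that relays the hedgehog signal. It was the most even of the tested members and the most abundant. The controls had 21.7, 24.9 and 35.9 FPKM, the BPB libraries 41.4, 28.7 and 32.0 FPKM, and the BPAF libraries 32.1, 28.0 and 36.2 FPKM. The 3 groups overlapped, with control 3 above 4 of the 6 exposed libraries. The difference was 0.31 in BPB (95% interval -0.28 to 0.91, limma adjusted p = 0.609) and 0.24 in BPAF (95% interval -0.36 to 0.84, adjusted p = 0.727). Its exons share 643 bases, 7.46% of its length, with the antisense gene B130024G19Rik.

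Hand2 encodes a stromal transcription factor induced by progesterone that restrains fibroblast growth factor signals to the epithelium. Its level was 9.16, 19.98 and 4.15 FPKM in control 1, 2 and 3, 31.6, 15.4 and 34.8 FPKM in BPB 1, 2 and 3, and 29.7, 14.1 and 57.2 FPKM in BPAF 1, 2 and 3. In each exposed group replicate 2 fell within the control range and the other libraries were above it. The difference was 1.38 in BPB (SE 0.61, limma adjusted p = 0.283) and 1.54 in BPAF (SE 0.61, adjusted p = 0.352). Of the exon bases of Hand2, 461 (19.6%) lie on the antisense gene Hand2os1, so a part of these values is uncertain.

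Bmp2 encodes a secreted growth factor needed for decidualization. It had close BPB values: 8.34, 9.98 and 8.83 FPKM in BPB 1, 2 and 3, against 2.24, 1.44 and 2.56 FPKM in control 1, 2 and 3. BPAF 1, 2 and 3 had 5.04, 0.790 and 3.01 FPKM, on both sides of the controls. The mean was 9.05 ± 0.839 FPKM in BPB (SD, n = 3), 2.08 ± 0.578 FPKM in control (SD, n = 3) and 2.95 ± 2.13 FPKM in BPAF (SD, n = 3). The BPB difference was 1.72 (SE 0.40, 95% interval 0.82 to 2.62, limma adjusted p = 0.0591) and the BPAF difference 0.21 (SE 0.40, 95% interval -0.69 to 1.11, adjusted p = 0.849). The BPB difference passed the threshold in 3 of 17 alternatives: without BPAF 1 (adjusted p = 0.0288), without BPAF 2 (adjusted p = 0.0184) and with only the 6 libraries compared (adjusted p = 0.0116). Over the 17 the adjusted p ranged from 0.0116 to 0.193. Without BPAF 1 the BPAF difference was -0.18. The 4 libraries with the highest Bmp2 were the 4 with urothelium sums of 1379 FPKM or more and those with the highest sums of lower urinary tract mesenchyme markers, and the part of that tissue in the Bmp2 values was not tested.

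Fkbp5 encodes an immunophilin that binds steroid receptor complexes and is a common target of progesterone and glucocorticoid receptors. Its level was 1.54, 1.99 and 0.690 FPKM in control 1, 2 and 3, 3.38, 1.66 and 5.27 FPKM in BPB 1, 2 and 3, and 4.54, 2.77 and 2.41 FPKM in BPAF 1, 2 and 3. BPB 2 lay within the control range and the other 5 exposed libraries lay above it. The difference was 0.84 in BPB (SE 0.36, limma adjusted p = 0.277) and 0.82 in BPAF (SE 0.36, adjusted p = 0.390).

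Il13ra2 encodes a receptor that binds interleukin 13 without signalling in the usual way and is known as an early progesterone-induced gene of the uterus. The controls had 1.002, 0.531 and 0.276 FPKM from 39, 19 and 9 reads. BPB 1, 2 and 3 had 20.5, 1.41 and 11.4 FPKM, and BPAF 1, 2 and 3 had 1.30, 0.265 and 57.7 FPKM. BPAF 3 held the highest value of the 9 libraries and BPAF 2 the lowest, a 217-fold range within 1 group. The difference was 2.45 in BPB (SE 1.30, limma adjusted p = 0.372) and 1.82 in BPAF (SE 1.30, adjusted p = 0.571), and the BPAF difference was 0.11 without BPAF 3. Its spread within groups was larger than that of 99.6% of tested genes. Cyp26a1, which encodes a retinoic acid-degrading enzyme and is also known as progesterone-induced in the uterus, had its highest values in BPB 3 (46.3 FPKM) and BPAF 3 (154 FPKM), against 0 to 0.224 FPKM in the controls. Uterine gland markers summed to 1518 FPKM in BPB 3 and 10242 FPKM in BPAF 3, to 475 FPKM in control 2, and to 13.6 to 35.6 FPKM elsewhere. The high sums came mostly from Prss28, Prss29 and Spink1. BPB 1, with 20.5 FPKM of Il13ra2, had a gland sum of 20.5 FPKM, but the gland markers differed among themselves there. Foxa2 was at 4.18 FPKM in BPB 1, its highest value of the 9 libraries, and Sox9 at 3.02 FPKM, below all controls. The part of glands in the Il13ra2 values was not tested.

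Areg encodes amphiregulin, a ligand of the EGF receptor made by the luminal epithelium under progesterone. It was low throughout, with 0.382, 0.178 and 0.457 FPKM in control 1, 2 and 3 (7, 3 and 7 reads). BPB 1, 2 and 3 had 2.82, 0.422 and 1.10 FPKM (50, 8 and 18 reads). BPAF 1 and 2 had 0.449 and 0.113 FPKM (7 and 2 reads), and BPAF 3 had 0 reads, which allows up to 0.185 FPKM at 3 reads, counting error only. BPB 1 and BPB 3 were above the controls, BPB 2 was within their range, and no BPAF library was above it. In a limma fit with no filter on low values, over 23431 genes, the BPB difference was 0.76 (adjusted p = 0.346) and the BPAF difference -0.19 (adjusted p = 0.863).

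Calca encodes calcitonin and, by alternative splicing, the neuropeptide CGRP, and its calcitonin form is made by uterine epithelium under progesterone. It reached 1 FPKM in no library. The controls had 0.0190, 0.103 and 0 FPKM (1, 5 and 0 reads), the BPB libraries 0.608, 0.0550 and 0.320 FPKM (31, 3 and 15 reads), and the BPAF libraries 0.112, 0 and 0.171 FPKM (5, 0 and 8 reads). A count of 0 allows up to 0.0681 FPKM in control 3 and 0.0588 FPKM in BPAF 2. BPB 1 and BPB 3 were the highest libraries, as for Areg, and the groups overlapped. Without a filter the limma difference was 0.33 in BPB (adjusted p = 0.325) and 0.07 in BPAF (adjusted p = 0.880). Gene-level values do not separate its splice forms, and reads shared with the similar gene Calcb would be uncertain.

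**Figure D2:**
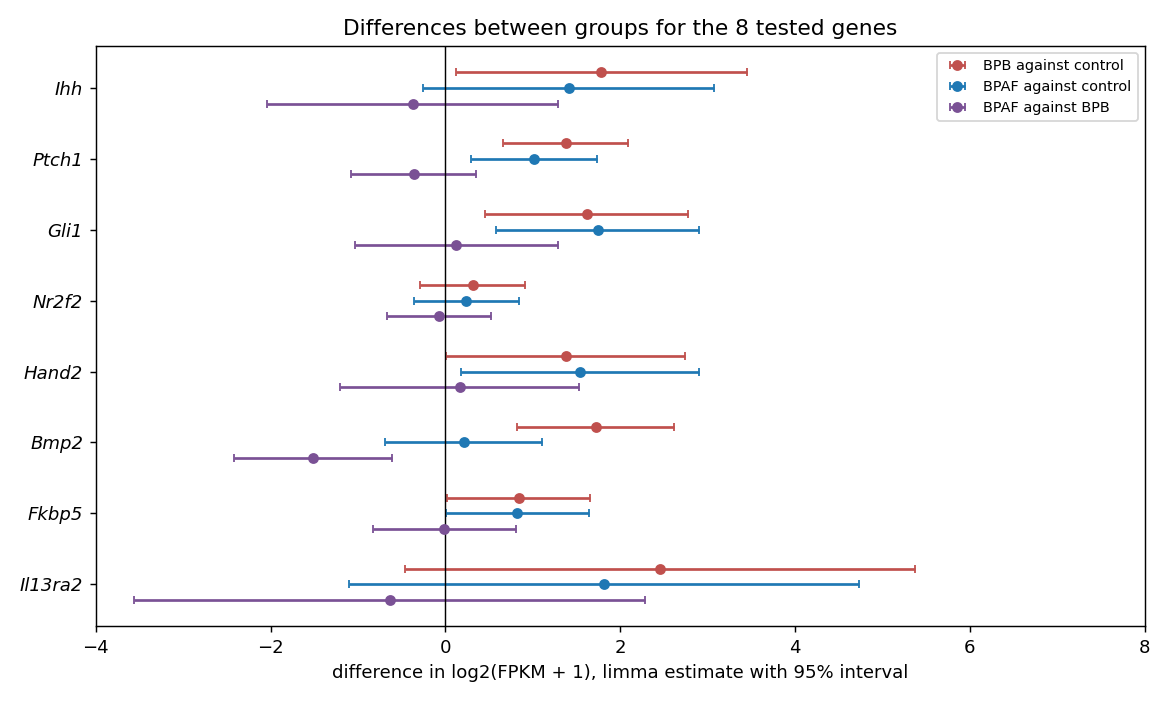
Differences in log2(FPKM + 1) between groups for the 8 tested genes (horizontal axis, limma estimate as a point with its 95% interval as a bar), for BPB against control (red), BPAF against control (blue) and BPAF against BPB (purple). No difference passed the adjusted threshold. The intervals of Ptch1, Gli1, Hand2 and Fkbp5 lie above 0 for both bisphenols. That of Ihh, which entered the test only through exposed libraries, lies above 0 for BPB. That of Bmp2 lies above 0 for BPB and below 0 for BPAF against BPB.

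BPB and BPAF are bisphenols with the same pair of phenol rings and differ at the bridging carbon, which carries a methyl and an ethyl group in BPB and a pair of trifluoromethyl groups in BPAF. They were compared at the same dose by mass and the same duration, as 1 pair. Among the 10 genes the values of the 2 compounds differed most in Bmp2, which was lower in all 3 BPAF libraries than in any BPB library, with a difference of -1.51 (SE 0.40, 95% interval -2.41 to -0.61, unadjusted p = 0.00402, limma adjusted p = 0.280). The direct comparison called 0 of the 8 tested genes, against 0.24% of all tested genes (33 genes, all lower in BPAF). Bmp2 was the 1 of 8 with an unadjusted p under 0.05, against 6.75% of all, and the 1 of 8 whose libraries did not overlap with lower BPAF, against 6.41% of all. Of 18 alternatives, leaving out BPAF 1 brought Bmp2 under the threshold (adjusted p = 0.0438), and the adjusted p over the 18 ranged from 0.0438 to 0.827. BPAF 1 is also the BPAF library with urothelium. For the 2 untested genes, the limma fit with no filter gave a BPAF against BPB difference of -0.94 for Areg (unadjusted p = 0.0207, adjusted p = 0.579). For Calca it gave -0.26 (adjusted p = 0.869).

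For the other 7 tested genes the direct difference was small beside its interval, which does not show that the compounds act alike. It was -0.37 for Ihh (95% interval -2.04 to 1.29), -0.36 for Ptch1 (-1.08 to 0.35) and 0.13 for Gli1 (-1.03 to 1.29). It was -0.07 for Nr2f2 (-0.67 to 0.52) and 0.16 for Hand2 (-1.20 to 1.53). It was -0.01 for Fkbp5 (-0.83 to 0.81) and -0.64 for Il13ra2 (-3.56 to 2.28). Their limma adjusted p lay between 0.983 and 0.998. The replicate number was also used as a block in the 6 libraries of BPB and BPAF, which treats same-numbered libraries as pairs though the labels name no pairing. With it the count over all genes went from 33 to 0 and that over the members stayed at 0.

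The wider hedgehog pathway was followed in 25 genes, of which 22 were tested. In BPB limma called 3 of the 22 higher and 0 lower, against 2.05% and 0.502% of all tested genes, and the median difference was 0.68 against 0.15 over all tested genes. Of the 3, Shh reached 1 FPKM only in the BPB libraries and BPAF 1, and Foxf2 only in the BPB libraries. Both therefore entered the test through libraries where they were high and had to differ. Others of the 22, among them Ihh, also reached 1 FPKM only in exposed libraries. The counts and medians of both exposures include these genes, and nothing is read from the counts or medians. In BPAF limma called 0 of the 22, with 4 at an unadjusted p under 0.05, against 12.8% of all tested genes, and a median of 0.44 against 0.21 over all. The 3 called were Shh, which encodes the sister ligand sonic hedgehog, and Foxf1 and Foxf2, which encode mesenchymal transcription factors induced by hedgehog in gut and bladder. Shh had 0 reads in every control, which allows up to 0.0698 to 0.0835 FPKM. It had 12.8, 24.8 and 28.4 FPKM in BPB 1, 2 and 3 and 13.7, 0 and 0 FPKM in BPAF 1, 2 and 3. Shh was thus present in exactly the 4 libraries with high urothelium markers, among which it is itself listed. The BPB difference of Shh was 4.45 (SE 0.89, limma adjusted p = 0.0398), and the floor of a count of 0 makes its fitted size depend on the pseudocount. With no filter on low values its adjusted p was 0.0754. Exons of Shh share 446 bases with 9530036O11Rik and 361 bases with Gm26894, both on the other strand.

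Foxf1 had 1.07, 1.22 and 0.656 FPKM in the controls, 14.6, 20.5 and 13.8 FPKM in BPB and 4.97, 1.73 and 3.13 FPKM in BPAF, and rose by 3.11 in BPB (SE 0.31, limma adjusted p = 0.0105). Foxf2 had 0, 0.0305 and 0 FPKM in the controls, 1.65, 2.14 and 2.37 FPKM in BPB and 0.396, 0.0580 and 0.0633 FPKM in BPAF, with a BPB difference of 1.59 (SE 0.22, limma adjusted p = 0.0157, or 0.0136 with no filter on low values). Both were also lower in BPAF than in BPB, Foxf1 by a difference of -2.07 (limma adjusted p = 0.0448) and Foxf2 by -1.39 (adjusted p = 0.0454), and both had an adjusted p of 0.250 there with the replicate block. Both were highest in the 4 libraries with the highest lower urinary tract mesenchyme sums given above, and the part of that tissue was not tested. The call of BPAF against BPB ended for both when any single library other than BPAF 1 was left out, with either smaller pseudocount, with the replicate block and with only the 6 libraries compared, and for Foxf1 with no filter, with adjusted p over 18 alternatives from 0.00680 to 0.259 for Foxf1 and from 0.0123 to 0.680 for Foxf2. The BPB call of Foxf1 held in 14 of 17 alternatives and ended without control 1, BPB 2 or BPB 3, with adjusted p from 0.00064 to 0.0658. That of Foxf2 held in 12 of 17 and also ended without control 1, BPB 2 or BPB 3, with a pseudocount of 0.01 and with the replicate block, with adjusted p from 0.00405 to 0.0925. That of Shh held in 7 of 17 and ended without any single control or BPB library, with either smaller pseudocount, with no filter and with the replicate block, with adjusted p from 0.000184 to 0.155.

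Other parts of the hedgehog route did not pass the test. The signal transducer Smo had 10.3 to 23.3 FPKM in the controls, 16.4 to 20.5 FPKM in BPB and 19.0 to 23.9 FPKM in BPAF, overlapping throughout. The GLI factors Gli2 and Gli3 had limma differences of 0.04 and 0.51 in BPB and of -0.10 and -0.05 in BPAF, with adjusted p from 0.494 to 0.978. Hhip, a decoy receptor often induced together with Ptch1 and Gli1, had differences of -0.27 in BPB (adjusted p = 0.721) and -0.74 in BPAF (adjusted p = 0.365), opposite in sign to those of Ptch1 and Gli1. The remaining hedgehog ligand, Dhh, stayed at or under 0.854 FPKM in every library.

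**Figure D3:**
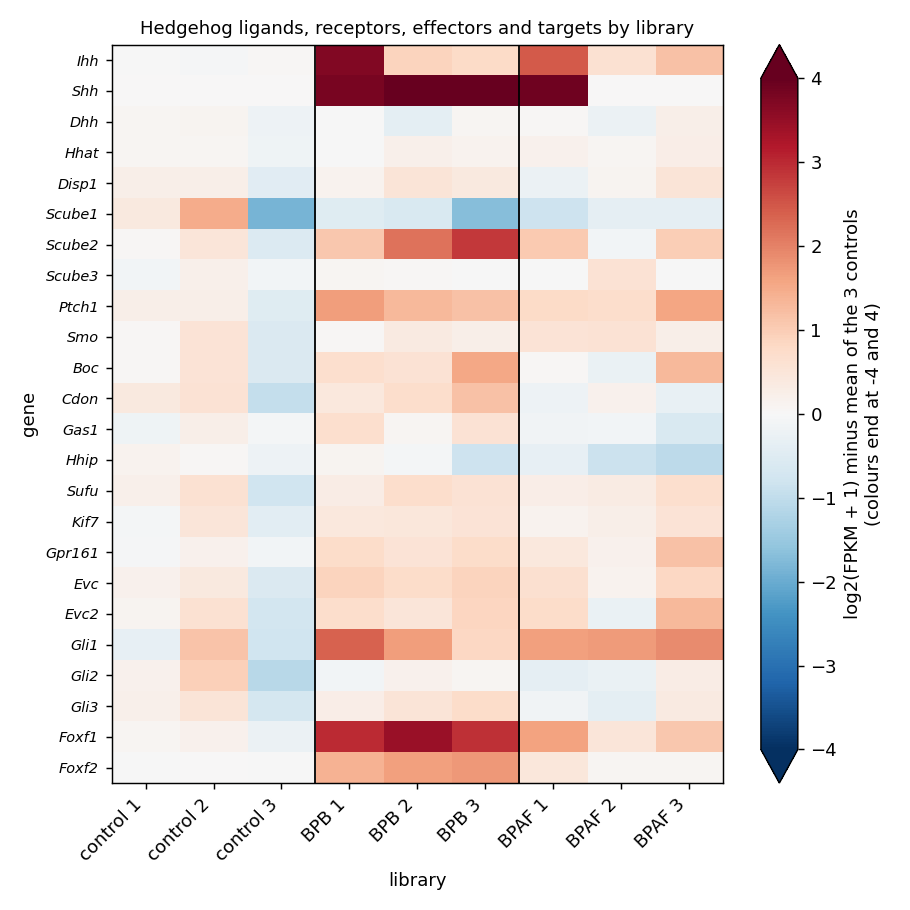
Heat map of hedgehog pathway genes (rows) in the 9 libraries (columns): colour is log2(FPKM + 1) minus the mean of the 3 controls, red above and blue below, ending at -4 and 4. Ihh, Ptch1 and Gli1 are red in all 6 exposed libraries, while Shh is dark red in the 3 BPB libraries and BPAF 1 and at the control level of 0 in BPAF 2 and BPAF 3.

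The progesterone receptor with its co-regulators and known targets formed a list of 33 genes, of which 30 were tested. In BPB 0 rose and 1 fell by limma, against 2.05% and 0.502% of all tested genes, with 9 at an unadjusted p under 0.05, against 17.4% of all, and a median difference of 0.78 against 0.15 over all tested genes. In BPAF limma called 0, against 0.0218% of all, with 11 at an unadjusted p under 0.05, against 12.8% of all, and a median of 0.76 against 0.21 over all. Of this list, Ihh, Cyp26a1 and Lrp2 reached 1 FPKM only in exposed libraries, so they entered the test through those and had to differ. The counts and medians include them, and nothing is read from the counts or medians. The gene that fell was Cebpb, a transcription factor of decidualization, with 69.5, 54.6 and 80.8 FPKM in the controls and 28.6, 21.5 and 23.0 FPKM in BPB (log2 difference -1.44, SE 0.28, limma adjusted p = 0.0381). BPAF 1, 2 and 3 had 23.8, 42.4 and 28.6 FPKM of Cebpb, also below every control, and that difference did not pass the test. All 6 exposed libraries lay below the controls for 1.69% of all tested genes. The call in BPB held in 7 of 18 alternatives and ended without any single control or BPB library, without control 3 and BPAF 1 together, with a pseudocount of 0.01, with no filter or the stricter one and with the replicate block, with adjusted p from 0.0273 to 0.159 over the 18. Of the exon bases of Cebpb, 20.7% lie on the antisense strand of Tmem189. Signs differed within the list: Pgr and Cebpb had negative differences and Ihh, Hand2, Fkbp5 and Il13ra2 positive ones in both exposures.

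**Figure D4:**
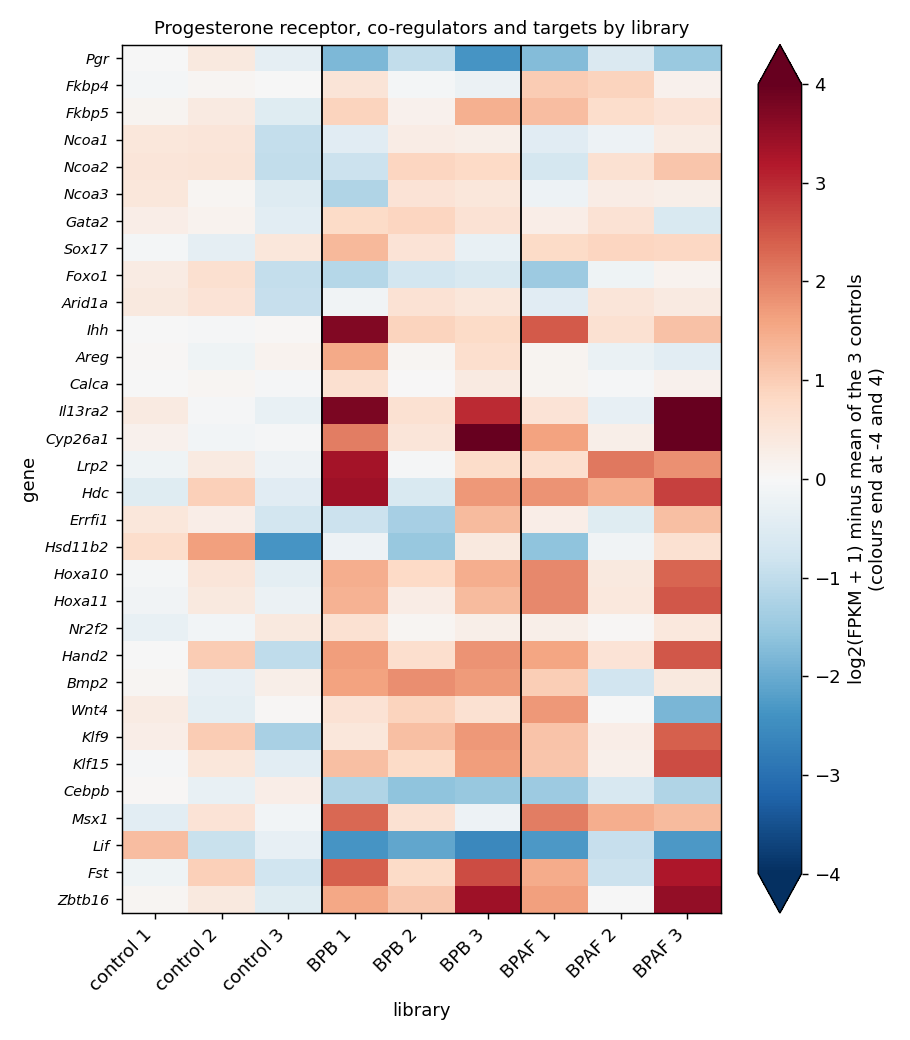
Heat map of 32 measured genes of the progesterone receptor list (rows) in the 9 libraries (columns): colour is log2(FPKM + 1) minus the mean of the 3 controls, red above and blue below, ending at -4 and 4. Pgr and Cebpb are blue in all 6 exposed libraries, Il13ra2 is darkest in BPAF 3, and Cyp26a1 is at the red end of the scale in both BPB 3 and BPAF 3.

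Genes around single members were counted in the same way. Of 11 targets shared by progesterone and glucocorticoid receptors, which include Fkbp5, limma called 0 in either exposure, with 5 at an unadjusted p under 0.05 in BPB, against 17.4% of all tested genes, and 1 in BPAF, against 12.8% of all. Their median difference was 0.84 in BPB and 0.82 in BPAF, and Zbtb16, a transcription factor of this class, had 2.01 in BPB (adjusted p = 0.259) and 1.72 in BPAF (adjusted p = 0.426). Of 8 steroid receptor chaperones and immunophilins limma called 0, with 1 at an unadjusted p under 0.05 in BPB (17.4% of all tested genes) and 2 in BPAF (12.8% of all). Fkbp4, the immunophilin that assists the progesterone receptor, had 0.06 in BPB (limma adjusted p = 0.948) and 0.69 in BPAF (adjusted p = 0.390).

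Among 7 fibroblast growth factors and receptors linked to HAND2, limma called 2 higher in BPB and 0 lower, against 2.05% and 0.502% of all tested genes, and in BPAF it called 0, with 1 at an unadjusted p under 0.05, against 12.8% of all. Of the 2, Fgfr3 reached 1 FPKM only in the 3 BPB libraries, so it entered the test through the group where it was high and had to differ. Among the genes not called, Fgf9 and Fgf18 also reached 1 FPKM only in exposed libraries. Fgf1, a growth factor, had 0.767 to 1.19 FPKM in the controls and 3.88 to 6.30 FPKM in BPB (log2 difference 1.56, SE 0.34, limma adjusted p = 0.0478), and 3.15, 0.793 and 1.04 FPKM in BPAF 1, 2 and 3. Fgfr3, a growth factor receptor, had 0.121 to 0.617 FPKM in the controls, 1.74 to 3.13 FPKM in BPB (log2 difference 1.41, SE 0.26, limma adjusted p = 0.0296, or 0.0460 with no filter) and 0.882, 0.417 and 0.715 FPKM in BPAF 1, 2 and 3. In both genes BPAF 1, the BPAF library with urothelium, was the highest of its group, and the part of that tissue was not tested. Exons of Fgfr3 share 13.9% of their bases with G630022F23Rik on the other strand. The call of Fgf1 held in 5 of 17 alternatives and that of Fgfr3 in 8 of 17. Both ended without any single control, BPB 2 or BPB 3, with pseudocounts of 0.1 and 0.01 and with the replicate block, that of Fgf1 also without BPB 1 or BPAF 3, with no filter and with median-ratio scaling, and that of Fgfr3 also without control 3 and BPAF 1 together. Adjusted p ranged from 0.0117 to 0.192 for Fgf1 and from 0.0251 to 0.137 for Fgfr3 over 17 alternatives each.

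Of 12 BMP ligands, receptors and SMAD proteins, which include Bmp2, limma called 1 higher in BPB and 0 lower, against 2.05% and 0.502% of all tested genes, and called 0 in BPAF, with 4 at an unadjusted p under 0.05, against 12.8% of all. The median difference was 0.72 in BPB and 0.29 in BPAF. The 1 called, Smad9, reached 1 FPKM only in the 3 BPB libraries, so it entered the test through the group where it was high and had to differ. Bmpr1b, which is among the 4 in BPAF, and Bmp5 also reached 1 FPKM only in exposed libraries. The counts and medians include these genes, and nothing is read from the counts or medians. Smad9, which carries the BMP signal to the nucleus, had 0.107 to 0.133 FPKM in the controls, 2.12 to 3.60 FPKM in BPB and 0.842, 0.0893 and 0.306 FPKM in BPAF 1, 2 and 3 (BPB log2 difference 1.83, SE 0.26, limma adjusted p = 0.0183, or 0.0256 with no filter). That call held in 11 of 17 alternatives and ended without control 1, control 3, BPB 2 or BPB 3, with a pseudocount of 0.01 and with the replicate block, with adjusted p from 0.00405 to 0.0958. BPAF 1 was again the highest BPAF library. The BMP receptor Bmpr2 was even, at 8.32 to 10.1 FPKM in the controls, 10.1 to 10.7 FPKM in BPB and 8.76 to 12.3 FPKM in BPAF.

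Of 6 genes of the interleukin 13 and 4 system 4 were tested. In BPB limma called 1 of the 4 lower and 0 higher, against 0.502% and 2.05% of all tested genes. In BPAF it called 0, with 2 at an unadjusted p under 0.05, against 12.8% of all. Il4ra, a signalling subunit of the receptor for interleukin 4 and interleukin 13, fell in BPB, from 49.2, 40.9 and 23.0 FPKM in the controls to 4.77, 9.71 and 8.58 FPKM (log2 difference -2.14, SE 0.46, limma adjusted p = 0.0473), and had 5.93, 19.0 and 6.68 FPKM in BPAF. Its partner Il13ra1 had 58.5, 23.0 and 39.5 FPKM in the controls, 14.5, 11.9 and 8.98 FPKM in BPB and 20.8, 27.8 and 13.5 FPKM in BPAF, a difference of -1.62 in BPB (adjusted p = 0.0617). Both had the opposite sign to Il13ra2. The Il4ra call held in 6 of 18 alternatives and ended without any single control or BPB library or BPAF 3, with either smaller pseudocount, with no filter or the stricter one and with the replicate block, with adjusted p from 0.0218 to 0.157. Exons of Il4ra share 9.51% of their bases with Gm44876 on the other strand. The ligand Il13 was at 0 in all 9 libraries.

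Of 12 EGF family genes, which include Areg, 7 were tested and limma called 0, with 2 at an unadjusted p under 0.05 in each exposure (17.4% of all tested genes in BPB and 12.8% in BPAF). Tgfa, another ligand of the EGF receptor, had a difference of 1.22 in BPB (adjusted p = 0.0912) and 0.76 in BPAF (adjusted p = 0.381), and Nrg1, a ligand of its sister receptors, -2.19 (adjusted p = 0.140) and -1.62 (adjusted p = 0.376). The receptor Egfr had 0.00 in BPB and -0.03 in BPAF. Of 10 calcitonin family genes, which include Calca, 5 were tested and limma called 0, with 2 at an unadjusted p under 0.05 in BPB and 1 in BPAF, against the same shares. The accessory proteins Ramp3 and Ramp2 had differences of -2.37 and -1.05 in BPB and of -1.40 and -0.12 in BPAF, and Ramp1, which makes the CGRP receptor with Calcrl, had 1.47 in BPB and 1.76 in BPAF, with adjusted p from 0.191 to 0.930 for these 3 genes.

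The members differed in how evenly the 3 libraries of a group measured them. The spread within groups on the log2(FPKM + 1) scale was 1.97 for Il13ra2, 1.10 for Ihh, 0.89 for Hand2 and 0.74 for Gli1, larger than in 99.6%, 96.8%, 92.8% and 87.3% of tested genes. It was 0.55 for Bmp2, 0.48 for Fkbp5, 0.40 for Ptch1 and 0.28 for Nr2f2, the last larger than in 24.2% of tested genes. BPB 1 held the highest value of 4 of the 8 tested members, Ihh, Ptch1, Gli1 and Nr2f2, while 6.51% of all tested genes were highest there, and it was also highest for the untested Areg and Calca. BPAF 3 was highest for Hand2 and Il13ra2, BPB 2 for Bmp2 and BPB 3 for Fkbp5. Control 3 was lowest for Ptch1, Gli1, Hand2 and Fkbp5, 4 of the 8 tested members, and for 39.9% of all tested genes.

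For each tested member the 3 genes with the most similar pattern were found by the mean absolute difference of centred log2(FPKM + 1) values over the 9 libraries. They were Rdh1 (0.32), Tmem132c (0.37) and Ctsd (0.39) for Ihh. Ptch1 was closest to Fah (0.15), Pabpc1l2b-ps (0.16) and Rbl2 (0.17), and Gli1 to Ptgs1 (0.35), Hoxd9 (0.37) and Gdf10 (0.38). Rdh1 had 5.997 FPKM in BPB 1 and 5.81 FPKM in BPAF 1, the 2 libraries in which Ihh was highest, and 0.388 to 1.60 FPKM in the others. Hand2 was closest to Fmo1 (0.24), Sema5a (0.25) and Lrrn1 (0.27), and Bmp2 to Stk26 (0.24), Tmem159 (0.25) and Kcnc4 (0.25). Kcnc4, a potassium channel gene, had 1.94 to 2.32 FPKM in BPB and at most 0.765 FPKM elsewhere, with that highest value in BPAF 1. Fkbp5 was closest to Camk1 (0.17), Hmga1 (0.18) and Pxylp1 (0.18), Nr2f2 to Coq3, Rfxap and Glt8d1 (0.06 each), and Il13ra2 to Angptl7 (0.58), Cwh43 (0.58) and Rnase1 (0.69). Angptl7 had 28.8 FPKM in BPB 1 and 60.3 FPKM in BPAF 3, where Il13ra2 was also highest. None of the members was among the 3 nearest genes of another member.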

How the data were processed

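Poly(A) RNA of mouse uterus was sequenced from a stranded mRNA kit, per the labels' protocols. The authors deposited 1 table per library, with a symbol and a value per gene. No unit is named, and these deposited values were read as FPKM, computed by the authors before deposition, because 84.9% to 86.7% of checked values came within 0.01 of a whole number of reads once multiplied by transcript length. No aligner, counter, strand setting, build or annotation is given in the sources used here. Of 34745 lines, 126 sharing 59 repeated symbols were left out. Groups came from the sample titles.

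Genes that reached 1 FPKM in 3 or more libraries were fitted as log2(FPKM + 1) in limma 3.58.1 (R 4.3.3). The fit used trend and robust estimation with group as the only term, and it was tried on simulated data. Simulated differences were added only to genes with high mean levels, so the simulation does not cover low genes such as Ihh. Reads of single genes were read back from the steps of the FPKM values. Floors, the FPKM of 3 reads, cover counting error only. The 10 genes are named always, listed genes when called or when receptor, ligand or effector of a member, or as the 2 smallest joint p-values of a list with no call, and 3 nearest genes per member. The values of Cyp26a1, Kcnc4, Rdh1 and Angptl7 were chosen for the text after their values were seen. The values of 1 gene of the hedgehog list are not reported here, though its list counts include it. The members and lists were chosen with earlier results of these data known.

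Same-numbered libraries of BPB and BPAF deviated together from their group means (correlations 0.343, 0.339 and 0.484 over tested genes), while those of control and BPB (-0.371, -0.127 and -0.399) and of control and BPAF (-0.159, -0.0790 and -0.247) did not. Some unlike-numbered libraries also deviated together, as control 3 with BPB 1 (0.448), control 2 with BPB 3 (0.372) and control 1 with BPB 2 (0.335). Unlike-numbered libraries of BPB and BPAF had correlations from -0.337 to -0.0721. The correlations therefore cannot show that the numbers pair libraries, and the labels name no pairing. Blocks by number were kept as alternatives only. Alternatives were other pseudocounts, filters, scaling and fits, the replicate block and leaving out each library, and, chosen after seeing the data, leaving out control 3 with BPAF 1 and the block in the 6 libraries of BPB and BPAF.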

Additional observations from a re-analysis of the deposited data

How the results depend on the processing

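The count of called genes depended strongly on the settings. In BPB against control, 351 genes became 152 with a pseudocount of 0.1, 66 with 0.01, 163 with no filter on low values, 54 with 1 FPKM required in all 9 libraries, and 1 to 427 when single libraries were left out, with 1 without control 1 or without BPB 2, 3 without BPB 3, 71 without control 3 and 99 without control 2. In BPAF against control, 3 genes became 0 with the stricter filter, with only the 6 libraries compared or without control 3 and BPAF 1 together, and 1 to 10 when single libraries were left out. In BPAF against BPB, 33 genes became 0 with either smaller pseudocount, the stricter filter or only the 6 libraries compared, 11 with no filter, 227 without control 3 and BPAF 1 together, and 0 to 234 when single libraries were left out, the 234 without BPAF 1. In the joint test, 116 genes became 2 with either smaller pseudocount, 56 with no filter, 0 with the stricter filter, 277 without control 3 and BPAF 1 together, and 0 to 310 when single libraries were left out. Of the 8 tested members, the count called in BPB went from 0 to 2 (Bmp2 and Ptch1) with only the 6 libraries compared, and the counts were 0 to 1 when single libraries were left out in BPB, in BPAF against BPB and in the joint test, the 1 being Bmp2 or, without BPAF 3 in BPB, Ptch1. The replicate block over all 9 libraries left 19 genes in BPB and 0 in each of BPAF, BPAF against BPB and the joint test, and the block in the 6 libraries of BPB and BPAF left 0; under both, 0 members were called, so it changed no call of a member. Some small differences changed sign. Bmp2 in BPAF was -0.18 to 0.69 when single libraries were left out and -0.070 without control 3 and BPAF 1, and Nr2f2 in BPAF was -0.023 with median-ratio scaling. In BPAF against BPB the ranges when single libraries were left out were -0.89 to 0.58 for Ihh, -2.34 to 0.43 for Il13ra2, -0.18 to 0.074 for Nr2f2, -0.32 to 0.66 for Hand2, -0.27 to 0.49 for Gli1 and -0.34 to 0.28 for Fkbp5, which was 0.0072 and 0.011 with pseudocounts of 0.1 and 0.01. The cause was not tested. Under 1 FPKM required in all 9 libraries, 3 of the members were tested. The depth of 12620198 to 15616772 reads limits Ihh in the controls, Areg and Calca, which rest on 5 reads or fewer, 50 or fewer and 31 or fewer.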
